A study of Homo sapiens with 3 samples.

Results

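The genes described here build and maintain mitochondria: the protein import channels and their helpers, the processing peptidase, the matrix chaperones, the proteases, the prohibitins, the fusion and fission proteins and the outer membrane channel VDAC. They were taken by symbol from a list of 54 names, chosen with earlier results of these data known. Of the 54, 53 had a row among the 17595 genes of the count table. TOMM6, a small subunit of the outer membrane channel, had no row under that name, and rows under other names were not used for it. RNA 5′ ends were counted in HEK293 cells, an established human line from embryonic kidney that carries adenovirus sequence, grown in DMEM with glutamine and fetal calf serum with no treatment named. The 3 libraries form 1 group of untreated cells; for each, 1000 cells were lysed together with spiked control RNA and a share equal to 100 cells went into 18 cycles of PCR. With no second condition, genes are compared with each other inside each library, and the libraries with one another. No row is named for an adenoviral gene (0 rows), and the labelled line was not checked against markers. No label ties a column to a replicate number, so libraries are called 20, 21 and 23 after their columns, and values in every library are given in that order. Nothing says that they came from separate cultures, so p-values measure a spread that may be technical.

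Most mitochondrial proteins are made in the cytosol and enter through the TOM complex of the outer membrane. From there the small TIM proteins of the intermembrane space guide carriers to TIM22 and barrel proteins to SAM, while TIM23 passes proteins with a presequence to the matrix, where the import motor pulls them in and the processing peptidase removes the presequence. Proteases and prohibitins then guard protein quality in the matrix and inner membrane, and mitofusins, OPA1 and the dynamin DNM1L fuse and divide the organelle.

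Promoter sequence was looked up for these genes because RNA 5′ ends, the ends that start at a promoter, are what was counted. RefSeq windows of GRCh38.p14, 250 bases before to 50 after a gene's start, were matched for 48 of 54 genes, PHB and TOMM70A under newer symbols. The letters CGCATGCG, the core of the site of nuclear respiratory factor NRF1, a known activator of nuclear genes for mitochondrial proteins, were found in 4 of 48 windows (8.33%), against 2.19% of all 27305 windows and 5.01% of the 6471 windows of genes averaging at least 10 counts per 1000000 endogenous counts (CPM). The 4 stretches are printed 5′ to 3′ on the gene's strand, 30 bases each, with the matched letters in capitals. They lie at chr7:22822955-22822984 on the minus strand (TOMM7), chr14:58427642-58427671 on the minus strand (TIMM9), chr3:14125003-14125032 on the minus strand (CHCHD4) and chr3:193593104-193593133 on the plus strand (OPA1).
TOMM7: gatcgcaaccaCGCATGCGcctactactgc
TIMM9: gagacacaacaCGCATGCGcgccaagaaac
CHCHD4: cagtgtttctgCGCATGCGcgcggcgagac
OPA1: gacgcactgtgCGCATGCGctggtcctccg

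The letters CCGGAAG, or their complement on the other strand, which ETS factors such as GABPA bind, were found in 17 of 48 windows (35.4%), against 10.7% of all windows and 23.2% of windows of genes at 10 CPM or more. The 3 most abundant genes with a stretch wholly before the start are printed, again 30 bases each with the match in capitals. PHB2 (chr12:6970835-6970864, minus strand) holds the letters on the other strand, and TIMM10 (chr11:57530791-57530820, minus strand) and TOMM20 (chr1:235128841-235128870, minus strand) hold them on the gene's strand.
PHB2: tcacaaatttcCTTCCGGctgccattttga
TIMM10: ggtatttaattCCGGAAGcgagtttgaatc
TOMM20: gttgactgggaCCGGAAGtggcgtgtgctc

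Other searches, on both strands, found AAGATGGC (YY1) in 6.25% of the 48 windows and in 7.17% of windows of genes at 10 CPM or more. CACGTG (the E-box) was in 10.4% and 11.4% of them, and CCAAT in 41.7% and 38.7%. TCTCGCGA was in 0 of 48 windows and in 3.26% of windows of genes at 10 CPM or more. The first 3 of these shares lie close to the background. That of CCGGAAG was higher than its background, but it rests on 17 windows, among them that of TOMM6, which had no row. The shares of CGCATGCG (4 of 48 windows) and TCTCGCGA (0 of 48) rest on too few windows to be told from the background. No test was made. Median levels with and without a match were 107 and 134 CPM for CCGGAAG, 93.4 and 130 CPM for CGCATGCG, and 90.7 and 120 CPM for AAGATGGC. They were 272 and 107 CPM for CACGTG and 122 and 110 CPM for CCAAT. The medians with a match rest on only 4 genes for CGCATGCG, 3 for AAGATGGC and 5 for CACGTG, so no direction is read from them. A match is a description of letters and not of binding.

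Each level is a mean CPM with its SD (n = 3 libraries), and 1 count equals 0.647 to 0.751 CPM. An RNA has 1 5′ end whatever its length, so levels were not divided by length. Whether capture of 5′ ends depends on length was not tested. Endogenous counts were 1475769, 1330877 and 1545594. The 54 genes took 1.12% ± 0.012 of them, with a median of 132 ± 3.80 CPM, an unlisted gene counting as 0, while the median of all listed genes was 6.89 ± 0.20 CPM. All 53 listed genes averaged at least 10 CPM, against 44.6% of all listed genes, and 32 averaged at least 100 CPM, against 9.91%. The list was chosen with earlier results known, so these comparisons are description only. Means of the 53 genes ran from 24.3 ± 5.40 CPM for SPG7 to 658 ± 45.6 CPM for TOMM7, a range of 27.1-fold. Set against the spiked RNA, added at 20000 molecules per cell by the labels' protocol, TOMM7 corresponded to 345 ± 40.2 molecules per cell and SPG7 to 12.8 ± 3.36, if spiked and cellular RNA were captured alike.

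**Figure D1:**
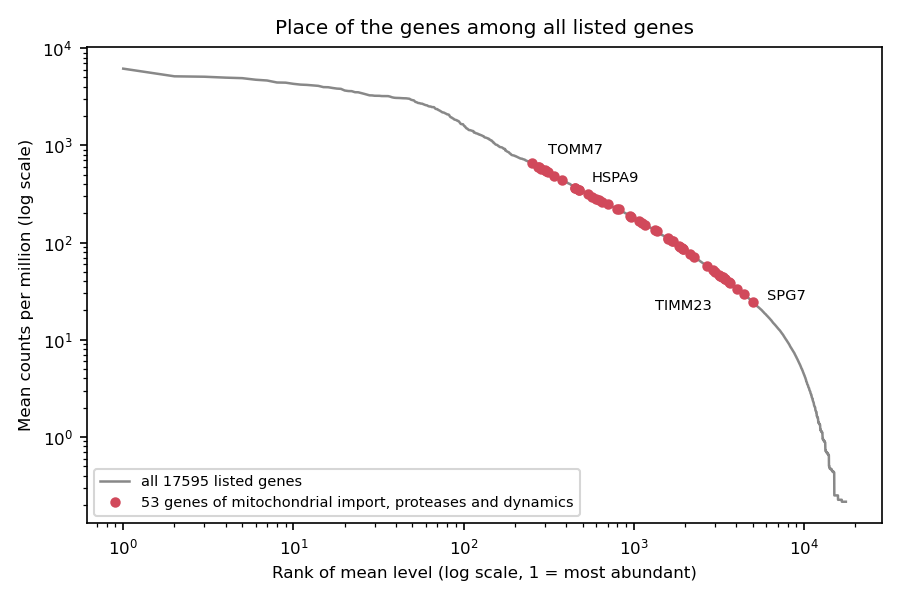
Mean level in CPM (log axis) against rank among all 17595 listed genes (log axis); the grey line is all genes and the red points are the 53 listed genes. The points lie between rank 251 (TOMM7) and rank 5031 (SPG7).

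**Figure D2:**
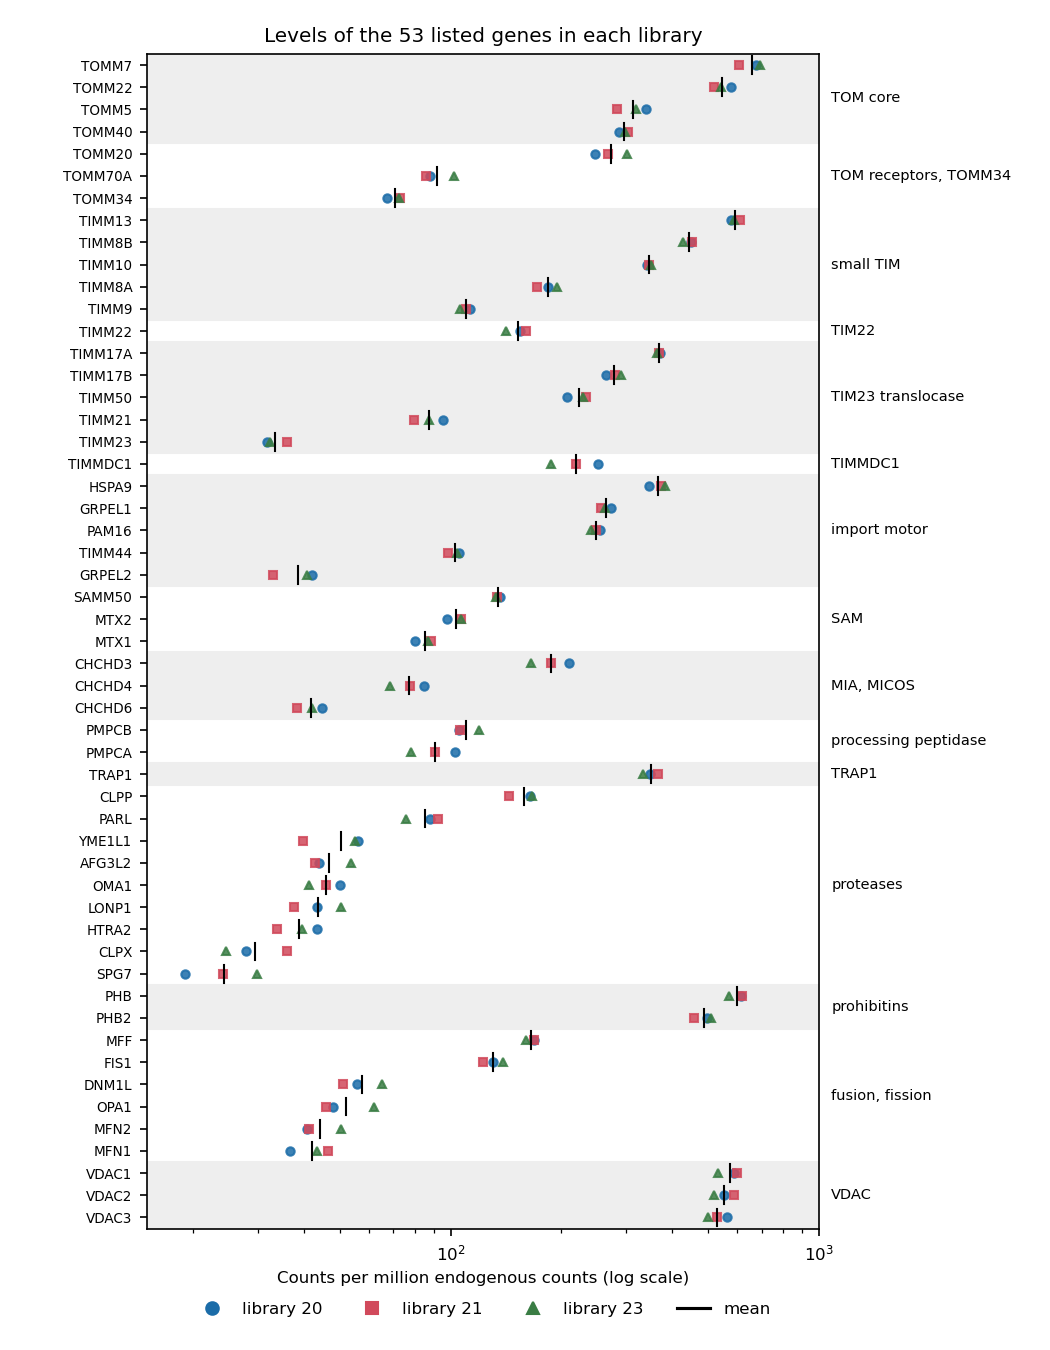
Level in CPM (log axis) of each of the 53 genes, grouped by role, with 1 symbol per library and a bar at the mean. The VDAC, prohibitin and most small TIM and TOM core genes lie to the right, and all proteases but CLPP lie below 100 CPM.

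In the outer membrane entry gate the small subunit TOMM7 and the receptor TOMM22 were counted more than the channel TOMM40. TOMM7, a small subunit that regulates assembly of the complex, had 995, 807 and 1071 counts (658 ± 45.6 CPM). TOMM22, the central receptor that holds the complex together, had 849, 690 and 836 counts (545 ± 28.6 CPM). TOMM40, the barrel that forms the channel, had 423, 403 and 461 counts (296 ± 8.34 CPM). Both leading genes lay above TOMM40 in each library: the log2 ratio of counts was 1.15 ± 0.13 for TOMM7 over TOMM40 and 0.88 ± 0.12 for TOMM22 over TOMM40 (SD, n = 3; limma adjusted p = 1.2e-22 and 2.5e-16). TOMM5, another small subunit, had 500, 376 and 493 counts (313 ± 28.5 CPM) and was not called different from TOMM40 (log2 ratio 0.08, 95% interval -0.09 to 0.25, limma adjusted p = 0.40). It lay below TOMM7 in each library (log2 ratio -1.07 ± 0.068, limma adjusted p = 7.2e-21).

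Of the receptors, TOMM20, which binds presequences, had 365, 357 and 465 counts (272 ± 27.0 CPM). TOMM70A, which receives carrier proteins from cytosolic chaperones, had 130, 114 and 158 counts (92.0 ± 8.95 CPM). TOMM20 exceeded it 2.95-fold (log2 ratio 1.56 ± 0.079, limma adjusted p = 2.2e-31, higher in 3 of 3 libraries). TOMM20 lay 2.01-fold below TOMM22 (SD of the log2 ratio 0.19, limma adjusted p = 2.6e-19, lower in 3 of 3 libraries), and TOMM20 and TOMM40 were not called different (log2 ratio -0.12, 95% interval -0.30 to 0.05). TOMM34, a cytosolic co-chaperone of import, had 99, 97 and 112 counts (70.8 ± 3.23 CPM), below TOMM70A in each library (log2 ratio -0.37 ± 0.13, limma adjusted p = 7.2e-05). That call was lost without library 20 (limma adjusted p = 0.062) and when each ratio was tested on its own spread (0.055).

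These contrasts, and those below, are log2 ratios of the counts of partners, paralogs or successive steps, taken within a library with 0.5 added to each count and set against 0 by limma's moderated test at an adjusted p of 0.05. Of 49 planned, 2 involved TOMM6, and of the 47 tested 37 passed, 19 with the first gene higher and 18 with the second. limma gave every contrast the same spread, with a standard error of 0.0875, although it ran from 0.060 to 0.227 when the spread was allowed to vary with the mean count. The p-values of low genes are therefore too small. Their 95% intervals rest on the same standard error and are too narrow in the same way. Each log2 ratio is given with its SD over libraries or its 95% interval. limma also took the shared spread as exactly known (infinite prior degrees of freedom), although it was pooled over contrasts that share genes. The very small limma p-values, of high genes too, rest on this and do not measure strength of evidence. With each contrast tested on its own spread 33 passed. TIMM23 over TIMM17A then went from a limma adjusted p of 1.4e-58 to 0.0038, and TOMM7 over TOMM40 from 1.2e-22 to 0.0094. Counts also depend on capture, which differs between RNAs: over 21 spiked RNAs the SD of log2 counts per nominal molecule was 0.74 for a single RNA, which makes 1.04 for a ratio of 2 RNAs. The slope of log2 counts on log2 nominal amount was 0.83, so counts were not proportional to amount. Both SDs therefore also hold a trend with amount. Of the 37 ratios past the threshold, 13 are smaller than 1.04.

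**Figure D3:**
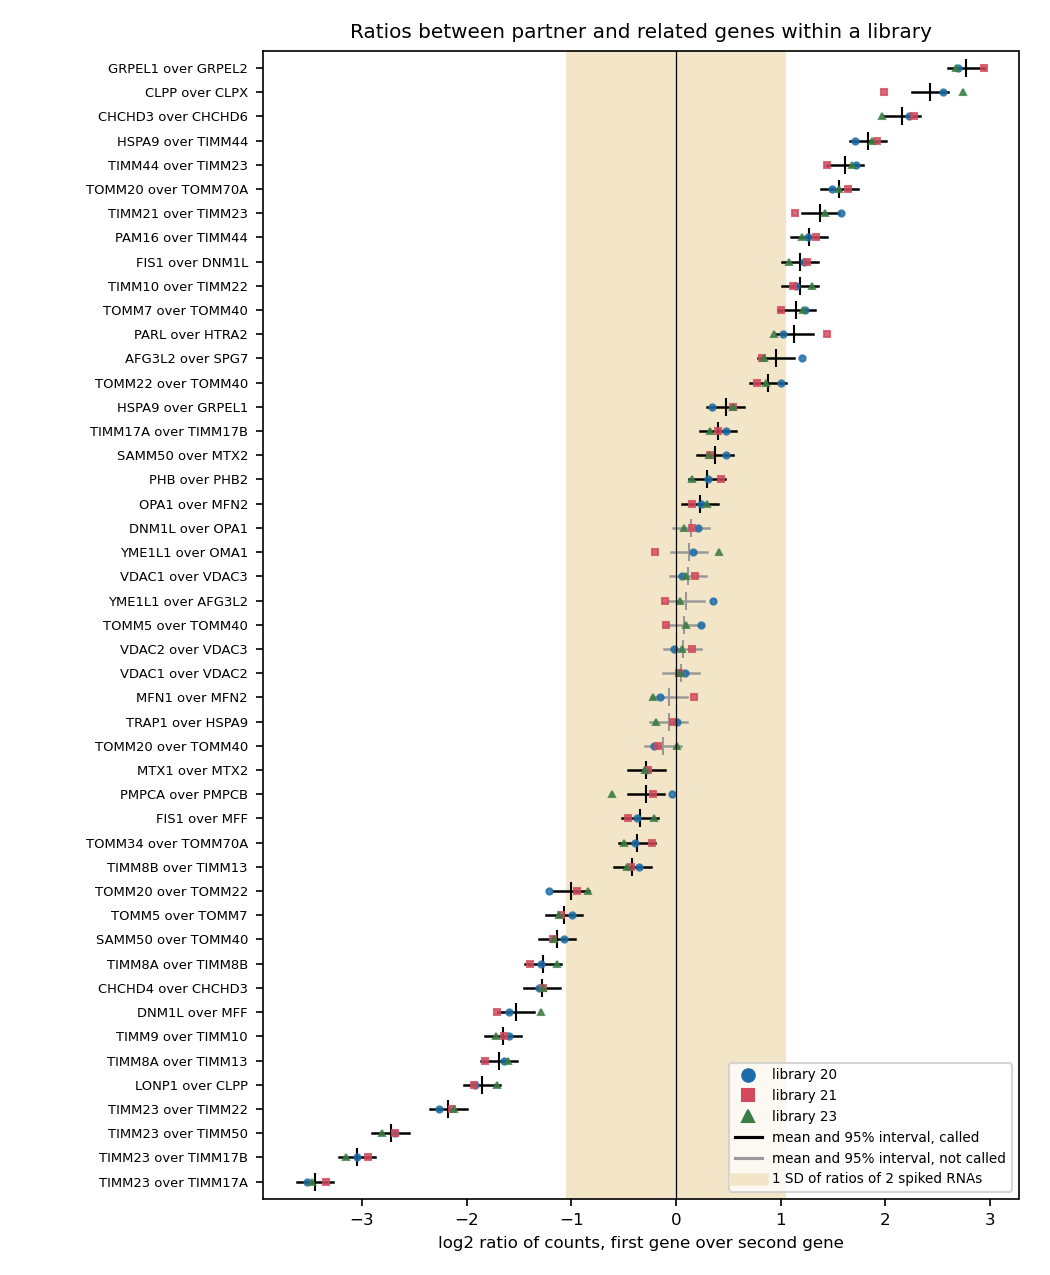
The log2 ratio of counts, first gene over second, for the 47 contrasts, with 1 symbol per library and a line for the mean and its 95% interval from the shared standard error, black where the limma adjusted p was under 0.05 and grey otherwise. The shaded band is 1 SD of a ratio of 2 spiked RNAs in counts per molecule, 1.04 to each side of 0; the ratios run from -3.45 (TIMM23 over TIMM17A) to 2.77 (GRPEL1 over GRPEL2).

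The small TIM genes, whose proteins pair as TIMM9 with TIMM10 and TIMM8A with TIMM13 in ring-shaped chaperones, were counted at unequal levels within both pairs. TIMM8A had 272, 229 and 300 counts (183 ± 11.0 CPM) and TIMM13 had 850, 812 and 911 (592 ± 17.2 CPM), a log2 ratio of -1.69 ± 0.12 for TIMM8A over TIMM13 (limma adjusted p = 8.4e-34). TIMM8B, the paralog of TIMM8A, had 665, 602 and 660 counts (443 ± 14.1 CPM). TIMM8A lay below it in log2 ratio by -1.27 ± 0.13 (limma adjusted p = 2.4e-25), and TIMM8B itself lay below TIMM13 by -0.42 ± 0.057 (limma adjusted p = 1.1e-05). In the other pair TIMM9 had 167, 147 and 164 counts (110 ± 3.56 CPM) and TIMM10 had 504, 461 and 540 (346 ± 3.97 CPM). The log2 ratio of TIMM9 over TIMM10 was -1.65 ± 0.063 (limma adjusted p = 4.2e-33), and no library's counts for the weaker partner reached those of the stronger. TIMM22, the channel for carrier proteins to which these chaperones deliver, had 228, 213 and 219 counts (152 ± 9.41 CPM), below TIMM10 in each library by a 2.27-fold ratio (log2 ratio 1.18 ± 0.10 for TIMM10 over TIMM22, limma adjusted p = 1.9e-23).

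In the TIM23 translocase the channel gene TIMM23 stood apart from its partners. TIMM23 had 47, 48 and 50 counts (33.4 ± 2.30 CPM), while TIMM17A had 545, 491 and 563 (367 ± 2.81 CPM) and TIMM17B had 391, 373 and 449 (279 ± 12.9 CPM). TIMM23 over TIMM17A had the largest log2 ratio of the 47 contrasts, -3.45 ± 0.094 (limma adjusted p = 1.4e-58, and 0.0038 on the contrast's own spread). TIMM23 is one of a pair of near-identical genes, and its copy TIMM23B had 1, 0 and 1 counts, so its counts are uncertain: how reads matching both copies were treated is not given in the sources used here. TIMM50, the receptor of this translocase, had 305, 311 and 354 counts (223 ± 14.4 CPM), while TIMM21, which links it to the TOM complex and the respiratory chain, had 141, 106 and 135 (87.5 ± 7.95 CPM). TIMM23 lay 6.62-fold below TIMM50 (log2 ratio -2.73 ± 0.073, limma adjusted p = 2.8e-50). It lay 2.60-fold below TIMM21 (log2 ratio 1.38 ± 0.22 for TIMM21 over TIMM23, limma adjusted p = 1.3e-27). TIMM17A and TIMM17B, alternative subunits of the same complex, were much closer to each other, with TIMM17A the higher one (log2 ratio 0.40 ± 0.076, limma adjusted p = 2.3e-05).

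TIMMDC1, a relative of the TIM17 proteins that serves in complex I assembly, had 371, 292 and 290 counts (219 ± 31.9 CPM), highest in library 20.

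Genes of the import motor differed in level up to 9.50-fold, from HSPA9 down to GRPEL2. HSPA9, the matrix Hsp70 that drives import, had 510, 497 and 589 counts (367 ± 18.7 CPM). Its nucleotide exchange factor GRPEL1 had 403, 341 and 405 counts (264 ± 8.56 CPM), and the motor regulator PAM16 had 375, 331 and 372 (248 ± 6.75 CPM). HSPA9 lay above GRPEL1 in each library (log2 ratio 0.47 ± 0.12, limma adjusted p = 7.7e-07). TIMM44, which tethers HSPA9 to the channel, had 156, 131 and 161 counts (103 ± 3.83 CPM), 3.56-fold below HSPA9 and 2.41-fold below PAM16. The log2 ratio was 1.83 ± 0.11 for HSPA9 over TIMM44 and 1.27 ± 0.064 for PAM16 over TIMM44 (limma adjusted p = 1.9e-36 and 2.9e-25). PAM16 overlaps other genes on its strand in the GENCODE v29 annotation, among them the read-through gene CORO7-PAM16, so the assignment of its reads is uncertain. GRPEL2, the second exchange factor, had 62, 44 and 63 counts (38.6 ± 4.85 CPM), and GRPEL1 exceeded it 6.81-fold (log2 ratio 2.77 ± 0.15, limma adjusted p = 1.0e-50). TRAP1, the mitochondrial member of the Hsp90 family, had 513, 486 and 516 counts (349 ± 15.7 CPM) and was not called different from HSPA9 (log2 ratio -0.07, 95% interval -0.25 to 0.10, limma adjusted p = 0.44).

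The sorting machinery for outer membrane barrels was counted at a moderate level. SAMM50, its core channel, had 201, 178 and 205 counts (134 ± 1.82 CPM), below TOMM40, one of the barrels it inserts, 2.20-fold (log2 ratio -1.14 ± 0.058, limma adjusted p = 2.0e-22). Of its partners, MTX1 had 118, 118 and 134 counts (85.1 ± 4.57 CPM) and MTX2 had 144, 142 and 165 (104 ± 5.28 CPM). The differences among these 3 were small but in the same direction in each library: MTX1 over MTX2 was -0.28 ± 0.017 and SAMM50 over MTX2 was 0.37 ± 0.093 (limma adjusted p = 0.0021 and 7.2e-05). CHCHD4, the oxidase that folds small proteins of the intermembrane space, had 125, 103 and 106 counts (76.9 ± 8.07 CPM). Of the cristae organisers of the MICOS complex, CHCHD3 had 310, 249 and 256 counts (188 ± 22.2 CPM) and CHCHD6 had 66, 51 and 65 (41.7 ± 3.22 CPM). CHCHD3 was 4.46-fold higher than CHCHD6 (log2 ratio 2.16 ± 0.16, limma adjusted p = 5.5e-42), and CHCHD4 lay below CHCHD3 (log2 ratio -1.28 ± 0.022, limma adjusted p = 1.6e-25). Counting alone gives a spread between libraries of 9.02% for MTX1, 8.17% for MTX2, 9.50% for CHCHD4 and 6.08% for CHCHD3. The SDs of 0.017 and 0.022 are smaller than that and do not show how exactly these 2 ratios are known.

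The subunits of the processing peptidase, a dimer, were close in level. PMPCA had 152, 121 and 121 counts (90.7 ± 12.4 CPM) and PMPCB, the catalytic subunit, had 156, 141 and 185 (110 ± 8.01 CPM). Their log2 ratio was -0.29 ± 0.29, so its spread between libraries was as large as the ratio itself. The call (limma adjusted p = 0.0018) was lost without library 20 (0.084), without library 23 (0.28) and on the contrast's own spread (0.26).

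Protease genes had the lowest median of the role groups, 44.8 ± 5.36 CPM over 9 genes, and 1 of the 9 averaged at least 100 CPM. It was CLPP, the peptidase of the ClpXP protease, with 243, 192 and 257 counts (158 ± 12.3 CPM). Its unfolding partner CLPX had 41, 48 and 38 counts (29.5 ± 5.93 CPM), a 5.38-fold lower level (log2 ratio 2.43 ± 0.39 for CLPP over CLPX, limma adjusted p = 4.2e-46). LONP1, the main matrix protease for damaged proteins, had 64, 50 and 78 counts (43.8 ± 6.46 CPM), below CLPP in each library (log2 ratio -1.85 ± 0.12, limma adjusted p = 8.4e-37).

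Among proteases of the inner membrane and the intermembrane space, PARL was counted most and SPG7 least. AFG3L2, the subunit that can form the m-AAA protease alone, had 65, 57 and 83 counts (46.9 ± 5.96 CPM). SPG7, its paraplegin partner, had 28, 32 and 46 counts (24.3 ± 5.40 CPM), the lowest of all listed genes here, and AFG3L2 exceeded it 1.94-fold (log2 ratio 0.96 ± 0.21, limma adjusted p = 3.6e-18, and 0.026 on the contrast's own spread). YME1L1, the i-AAA protease on the other face of the inner membrane, had 83, 53 and 85 counts (50.4 ± 9.14 CPM). It was not called different from AFG3L2 (log2 ratio 0.09 ± 0.23, 95% interval from the shared standard error -0.08 to 0.27). OMA1, which cleaves OPA1 under stress, had 74, 61 and 64 counts (45.8 ± 4.37 CPM), and YME1L1 over OMA1 was 0.12 ± 0.31 (95% interval -0.05 to 0.30). Without library 21 YME1L1 lay above AFG3L2 and above OMA1 (limma adjusted p = 0.047 and 0.0037). PARL, the rhomboid protease, had 130, 123 and 117 counts (85.4 ± 8.68 CPM), 2.19-fold above HTRA2, a serine protease released in apoptosis, with 64, 45 and 61 counts (38.9 ± 4.80 CPM). The log2 ratio of PARL over HTRA2 was 1.13 ± 0.27 (limma adjusted p = 3.0e-22, and 0.029 on the contrast's own spread).

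Prohibitins and VDACs lay in the range of the most abundant import genes. PHB had 906, 820 and 879 counts (599.6 ± 26.8 CPM) and PHB2 had 731, 610 and 789 (488 ± 26.8 CPM); their proteins alternate in a ring that scaffolds the inner membrane. PHB was higher in each library (log2 ratio 0.30 ± 0.14, limma adjusted p = 0.0014). The call did not hold when library 20 was left out (0.094) or on the contrast's own spread (0.082). PHB has 21 pseudogenes by name in GENCODE v29 and VDAC1 has 13. Other genes of the list have fewer, among them TOMM22 with 6 and TOMM20, CHCHD4 and VDAC2 with 4 each. Reads from such copies may be counted with the parent gene, which was not tested. The PHB and VDAC pseudogenes listed in the table by name held at most 3 counts in a library.

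The channels for metabolites in the outer membrane were counted at nearly equal levels. VDAC1 had 865, 797 and 824 counts (573 ± 34.9 CPM), VDAC2 had 816, 783 and 801 (553 ± 35.0 CPM) and VDAC3 had 829, 703 and 772 (530 ± 31.2 CPM). The ranges of the 3 genes overlapped, although VDAC1 had the highest count in each library. No pair was called different: the log2 ratio was 0.05 for VDAC1 over VDAC2 (95% interval -0.12 to 0.22), 0.11 for VDAC1 over VDAC3 (-0.06 to 0.29) and 0.06 for VDAC2 over VDAC3 (-0.11 to 0.24). A difference of more than 0.29 in log2 counts thus lay outside the interval of each pair.

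Fusion and fission genes fell into a higher and a lower set. The adaptors that recruit the division dynamin to the outer membrane were the higher set: FIS1, whose role in mammalian division is debated, had 192, 163 and 214 counts (130 ± 7.99 CPM) and MFF had 248, 224 and 247 (165 ± 4.83 CPM). DNM1L, the dynamin itself, had 82, 68 and 101 counts (57.3 ± 7.29 CPM), lower than MFF (log2 ratio -1.53 ± 0.22, limma adjusted p = 8.8e-31). FIS1 also exceeded DNM1L (log2 ratio 1.19 ± 0.093, limma adjusted p = 1.9e-23). FIS1 itself lay below MFF (log2 ratio -0.34 ± 0.13, limma adjusted p = 0.00023), but not past the threshold when library 20 was left out (0.068) or on the contrast's own spread (0.057).

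The fusion genes formed the lower set with DNM1L. OPA1, the inner membrane fusion dynamin, had 71, 61 and 96 counts (52.0 ± 8.81 CPM). The outer membrane mitofusins were alike in count: MFN1 had 54, 62 and 67 counts (42.2 ± 5.10 CPM) and MFN2 had 60, 55 and 78 (44.1 ± 5.48 CPM), with overlapping ranges. No difference was called between MFN1 and MFN2 (log2 ratio -0.07 ± 0.21, 95% interval -0.24 to 0.11, limma adjusted p = 0.47) or between DNM1L and OPA1 (0.14, 95% interval -0.03 to 0.32, limma adjusted p = 0.12). OPA1 exceeded MFN2 (log2 ratio 0.23 ± 0.076, limma adjusted p = 0.013). Leaving out library 20 (0.083) or library 23 (0.098) ended that call, as it did when the spread was allowed to vary with the mean count, a setting chosen after the data were seen (0.13).

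Besides PAM16, at least 9 of the genes overlap in GENCODE v29 a gene that itself had at least 100 counts over the 3 libraries, so the assignment of their reads is uncertain. Overlapping genes were looked up by their GENCODE v29 names only, and any counted under an older name were missed. LONP1, with 192 counts in all, overlaps the ribosomal gene RPL36 on the opposite strand, which had 18308. HTRA2, with 170 counts, overlaps AUP1, which had 754. On the opposite strand lie also PQBP1 at TIMM17B, DNAJC2 at PMPCB, MASTL at YME1L1, TUBB6 at AFG3L2 and YARS2 at DNM1L, with 104 to 462 counts. Without a stated use of strand, reads of such partners cannot be told apart. On the same strand, TIMM13 overlaps LMNB2 (334 counts) and SAMM50 overlaps PARVB (141 counts).

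Longer transcripts had lower counts among these genes, and so they did among all genes. The Spearman correlation of mean CPM with the median length of coding transcripts was -0.39 over the 53 genes and -0.39 over 7253 protein-coding genes at 10 CPM or more; the genes share libraries and are not independent. Members up to 1823 bases long had a median of 204 CPM (28 genes), those from there to 3204 bases 96.8 CPM (16 genes) and longer ones 50.4 CPM (9 genes). For the 7253 genes the medians of the same length classes were 73.8, 33.1 and 24.9 CPM. The part of length in the contrasts above was not tested. Not every gene followed this order: HSPA9 and TOMM20, with high counts, are 3776 and 3387 bases long, and GRPEL2, CHCHD6 and TIMM23, with low counts, are 1006, 1082 and 1222 bases long.

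**Figure D4:**
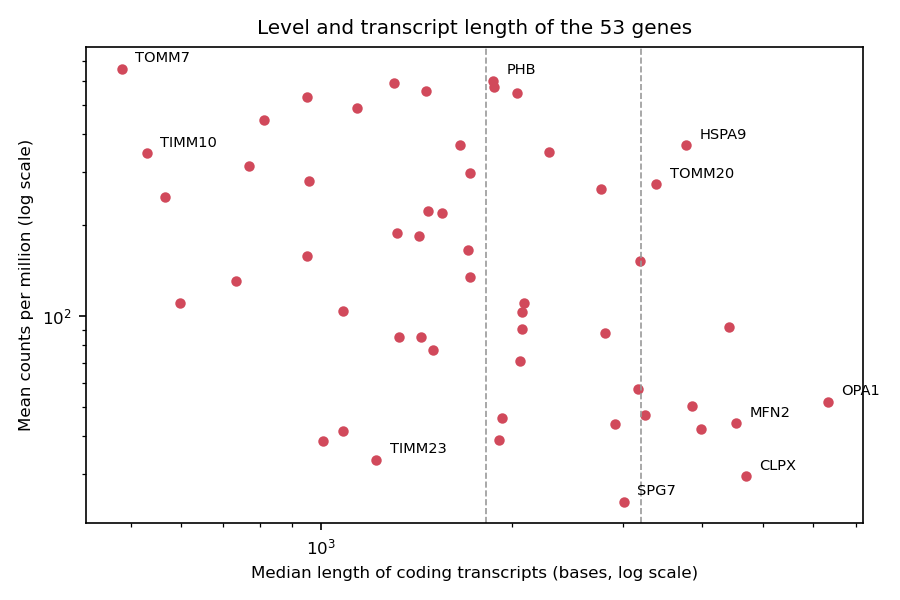
Mean CPM (log axis) against the median length of a gene's coding transcripts in GENCODE v29 (bases, log axis) for the 53 genes; dashed lines at 1823 and 3204 bases split all protein-coding genes at 10 CPM or more into 3 equal classes. Levels are lower to the right, from a median of 204 CPM in the shortest class to 50.4 CPM in the longest.

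Other features of these genes had values near those of genes at 10 CPM or more. The GC content of their promoter windows had a median of 65.3% over 47 listed genes, against 65.7% over genes at 10 CPM or more. A coding gene on the opposite strand started within 1000 bases upstream of 7 of the 54 genes (13.0%) in GENCODE v29, against 11.5% of coding genes at 10 CPM or more. Over all 19936 coding genes of the annotation the share was 7.38%. The partners were EMG1 at 244 CPM (PHB2), TMEM43 at 36.8 CPM (CHCHD4), ANKRD11 at 19.4 CPM (SPG7), ATP13A4 at 0.452 CPM (OPA1), CATSPERD at 0.250 CPM (LONP1) and FBXO15 at 0.226 CPM (TIMM21), and AP002884.3 (TIMM8B), which had no row under that name. The partners thus ranged from abundant to barely counted.

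Between libraries, levels of these genes varied about as much as those of other genes. A difference between a pair of libraries was called for 0 of the 53 (exact binomial test on counts, 2-sided, Benjamini-Hochberg adjusted over all genes and pairs), against 0.581% of the 11013 genes tested. At an unadjusted exact p under 0.05, 11 of the 53 (20.8%) differed in at least 1 pair, against 15.8% of all genes tested. A chi-square test over the 3 libraries likewise called 0 of the 53, against 0.727% of 11424 genes. The lowest p was that of TIMMDC1, at 251 CPM in library 20 and 188 CPM in library 23 (log2 ratio 0.42, exact p = 1.85e-04, adjusted exact p = 0.0587). TIMMDC1 was called when the test used TMM or DESeq2 scaling, a minimum of 50 counts, or only libraries 20 and 23.

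The spread of single genes between libraries was near that of other genes, and somewhat above counting. The coefficient of variation over libraries had a median of 6.47% for the 53 genes, and it was above the value that counting alone gives for 27 of them (50.9%), against 47.4% of 5573 genes averaging at least 30 counts. With 3 libraries an SD falls below its true value more often than above it, so counting alone would place fewer genes above. At an unadjusted chi-square p under 0.05, 13.2% of the 53 and 9.26% of 11424 genes passed, both more than counting alone gives at that threshold. The coefficient ran from 0.764% for TIMM17A to 22.2% for SPG7. More than 2 times the value from counting was reached by 2 of the 53 genes, against 352 of the 5573 genes. The 2 were TIMMDC1, at 14.5% against 5.62% from counting, and TOMM7, at 6.92% against 3.24%. For genes such as SPG7 and CLPX, counting error alone allowed 16.9% and 15.4%, so differences between libraries of that size were not detectable at this depth.

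**Figure D5:**
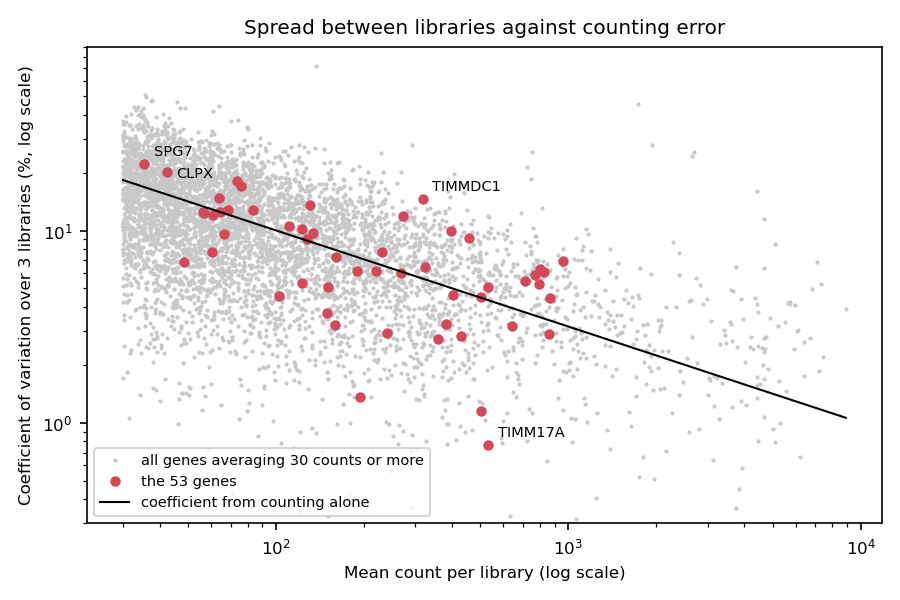
Coefficient of variation over the 3 libraries (percent, log axis) against the mean count per library (log axis); grey points are all genes averaging at least 30 counts, red points the 53 genes, and the line is the value from counting alone. TIMMDC1 lies above the line at 14.5% and TIMM17A below it at 0.764%.

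A further 57 genes of import, folding, quality control, cristae and dynamics were set beside them, chosen like the first with earlier results of these data known. Of these, 55 had a row, one of them (TIMM29) under an older name, and TOMM20L and TIMM10B had none. They took 0.716% ± 0.0042 of endogenous counts with a median of 30.4 ± 1.21 CPM, 44 averaging 10 CPM or more and 13 averaging 100 CPM or more. The chaperonin genes HSPD1 and HSPE1 had 2082, 1928 and 2109 counts (1408 ± 42.1 CPM) and 400, 385 and 495 counts (294 ± 24.9 CPM). HSPD1 was thus above each of the 53 genes. CHCHD2, a twin-cysteine protein that also acts in the nucleus, had 1908, 1765 and 1973 counts (1299 ± 25.3 CPM), and its paralog CHCHD10 had 495, 459 and 642 (365 ± 43.7 CPM).

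Next came ROMO1, a small inner membrane protein, with 966, 850 and 980 counts (642 ± 10.8 CPM), and STOML2, a relative of the prohibitins, with 640, 592 and 703 (444 ± 10.6 CPM). DNAJC19, the J-protein of the import motor, had 600, 457 and 533 counts (365 ± 36.1 CPM), and C19orf70, a MICOS subunit, had 542, 448 and 511 (345 ± 19.7 CPM). At the other end were PARK2, the ubiquitin ligase parkin of mitophagy, with 0, 0 and 3 counts, and DNAJC15, a J-protein related to DNAJC19, with 0, 0 and 1. PINK1, the kinase upstream of parkin, had 24, 20 and 22 counts (15.2 ± 1.02 CPM). A difference between libraries was called for 0 of the 52 genes tested here (exact binomial test; lowest adjusted exact p = 0.0919), against 0.581% of all genes tested, and for 12 at an unadjusted exact p under 0.05, against 15.8%.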

How the data were processed

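The authors deposited raw counts per gene symbol and spiked RNA for 3 libraries of 1 group, whole numbers with no normalization. The submitters' processing notes name STAR 2.4.0a, cutadapt 1.2.1 and the build hg19 (GRCh37). Not given in the sources used here: the counting tool, its annotation, any use of strand and any collapsing of identifiers. A count may therefore stand for a read or for a molecule, and overlapping genes or near-identical copies were counted by unknown rules. Total counts were 1532672, 1384172 and 1601555, of which spikes took 3.69% ± 0.18. Each of the 17675 rows has at least 1 count, so no limit can be given for a gene with no row. Intervals from counts cover counting error only.

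CPM used endogenous totals without the 80 spikes. Libraries were compared over all genes with an exact binomial test per pair (at least 10 pooled counts in the pair), adjusted by Benjamini-Hochberg over genes and the 3 pairs. No groups exist, so edgeR's quasi-likelihood test was not used. Gene contrasts used limma 3.58.1, Benjamini-Hochberg adjusted over the 47. The gene list, the contrasts and the further pathway list were chosen with earlier results of these data known. Every gene of the list is named, with counts in each library; of the further list, the 8 most abundant genes, those with no row, and PINK1, PARK2, DNAJC15, TIMM23B (the copy of TIMM23) and TIMM29 (found under an older name), chosen after their values were seen. Nominal amounts of 21 spikes, in steps of 2, were written from general knowledge of the product. Names, lengths, overlaps and promoters came from GENCODE v29 (GRCh38) and RefSeq (GRCh38.p14), not the authors' build. Tests were also run on simulated counts. In these, contrasts shared no genes, had no low counts and had the same dispersion, and the pair test met counting error only. The check therefore does not cover shared genes, unequal spread or spread beyond counting. Alternatives were TMM (edgeR 4.0.16), DESeq2 1.42.0 size factors, spike scaling, count minimums, pseudocounts, the spread model, a chi-square test and leaving out each library, in Python 3.11.15 and R 4.3.3. Cell identity was not tested with markers.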

Additional observations from a re-analysis of the deposited data

How the results depend on the processing

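The median level and the numbers of genes at 10 and 100 CPM moved by less than 1 SD, or not at all, under TMM, DESeq2 or spike scaling and without any 1 library, and so did the share of counts under spike scaling and without any 1 library. The median was 136 CPM over listed genes only, and the mean in its place was 208 CPM. Of the 37 contrasts past the threshold, 32 kept their call and direction in every setting, and the count was 37 with pseudocounts of 1 or 0.1 or a minimum of 10 counts, 33 on each contrast's own spread, 36 with a spread that varied with the mean count (added after the data were seen) and 32 to 39 without 1 library. Contrasts that had not passed changed sign without 1 library: TOMM5 over TOMM40 ranged over -0.0016 to 0.17, YME1L1 over AFG3L2 over -0.0349 to 0.19, YME1L1 over OMA1 over -0.0183 to 0.29 and MFN1 over MFN2 over -0.18 to 0.0103. Among the 53 genes, 0 differed between libraries in the main test, 1 (TIMMDC1) with a minimum of 50 counts, with TMM or with DESeq2 scaling, and 0 to 1 without 1 library. With spike totals 3 did (TOMM7, TOMM20 and PHB2). Over all genes 64 differed, 118 with DESeq2 scaling, 263 with spike totals and 8 to 59 without 1 library, 8 being the count without library 23 and 42 that without library 20. The cause of these shifts was not tested. No paired analysis was possible because the columns carry no replicate numbers and there is 1 group.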
